A study of Rattus norvegicus with 4 samples.

Results

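Insulin-like growth factor 1 (Igf1) and 3 of its binding proteins (Igfbp1, Igfbp3 and Igfbp4) were described in rat liver at 1 h after the common bile duct was tied. On these arrays 7 probes carry exactly 1 gene symbol that is one of these names, of 1432 probes with a single symbol and 1936 in all. They stand for 4 of 958 named genes. The genes were chosen by name while the ligated over sham values of these arrays were already known, among them that Igfbp4 had passed the test. Their ligated over sham values are therefore a description, given with standard errors and no p-value.

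Male Sprague-Dawley rats underwent common bile duct ligation or, as controls, a sham operation in which the duct was exposed and not tied. All were killed under ether anesthesia at 1 h in groups of 3, and liver RNA of a group was mixed, so each array holds pooled RNA of the right lateral lobe. Poly(A) RNA of ligated and sham animals was hybridised together on 4 cDNA arrays, with the ligated sample in Cy5 on arrays 1 and 3 and in Cy3 on arrays 2 and 4. The labels do not say whether arrays shared RNA extracts, so errors measure the spread between arrays and not between animals.

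IGF1 is a peptide hormone made mainly by hepatocytes under growth hormone, whose receptor signals through the kinase JAK2 and the transcription factor STAT5B. In blood it travels bound to carriers of the IGFBP family, for the most part in a complex of IGFBP3 and the acid labile subunit, the product of Igfals. IGFBP1 is a hepatocyte product that insulin holds down and that fasting and glucocorticoids raise, IGFBP4 mostly restrains IGF action, and IGFBP3 mRNA of rat liver comes largely from non-parenchymal cells. Igfbp1 and Igfbp3 lie beside each other on rat chromosome 14, with 0 protein-coding genes between them in the RefSeq annotation of GRCr8.

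The upstream sequences of Igfbp4, the gene with the highest value here, and of Igfbp1, the carrier best known for hormonal control, are shown to let a reader compare both carriers. Both come from RefSeq on GRCr8, plus strand, and end at the base before the annotated start, Igfbp4 at chr10:84491221-84491470 and Igfbp1 at chr14:86261027-86261276. Capitals mark 2 searched words, each looked for on both strands: CAAAACA, the core of the insulin response element of Igfbp1, and TATAAA, the TATA box.
Igfbp4: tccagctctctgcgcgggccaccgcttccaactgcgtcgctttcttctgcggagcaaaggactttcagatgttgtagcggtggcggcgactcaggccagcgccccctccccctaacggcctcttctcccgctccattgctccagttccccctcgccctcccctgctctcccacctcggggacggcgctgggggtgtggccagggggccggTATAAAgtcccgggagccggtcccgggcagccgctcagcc
Igfbp1: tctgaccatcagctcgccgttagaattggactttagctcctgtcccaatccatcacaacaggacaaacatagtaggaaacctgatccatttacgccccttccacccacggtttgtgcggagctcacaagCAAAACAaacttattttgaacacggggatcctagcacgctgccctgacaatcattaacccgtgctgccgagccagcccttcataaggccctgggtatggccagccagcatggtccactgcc

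The Igfbp1 sequence held CAAAACA once and the Igfbp4 sequence held TATAAA once. Of all 33469 promoter windows of this length, 5.46% held CAAAACA and 12.9% held TATAAA. The window of Igf1 also held CAAAACA, and that of Igfbp3 held neither word. G and C made up 68.8% of the Igfbp4 window and 71.6% of the Igfbp3 window, against 52.8% for Igfbp1, 46.8% for Igf1 and a median of 51.2% over all windows. These matches describe letters in a window and were not set against the array values.

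The deposited value of a probe is the log ratio of the channels on one array, with the base of the log not stated. Values were taken as ligated divided by sham. The labels list sham as channel 1 and ligation as channel 2, which makes this direction likely without stating it, and the opposite direction would reverse each operation sign given here. The values largely followed the dye, since array medians were -0.88 and -0.73 where the ligated sample carried Cy5 and 0.75 and 0.87 where it carried Cy3. Each array was therefore centred on its median, and limma fitted both an operation term and a dye term to every probe. The estimate for the operation is the mean of the centred values on all 4 arrays. A ratio carries no level, so the members cannot be ranked by abundance, the liver identity of the samples cannot be checked from markers, and fewer cells of a type cannot be told apart from less RNA per cell.

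Igfbp4 stood highest of the described probes. As deposited, its probe 626 read -0.37, 0.80, -0.48 and 1.21 on arrays 1 to 4. After centring the values were 0.51, 0.05, 0.25 and 0.34, above 0 on 4 of 4 arrays, a pattern shared by 1.50% of all probes. Before centring the signs parted by dye, and the lowest centred value, on array 2, was close to 0.

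The estimate of Igfbp4 was 0.29 ± 0.08 (SE, n = 4 arrays), which would be 1.22-fold if the base is 2, 1.33-fold if it is e and 1.94-fold if it is 10. It lay at the 99.2th percentile of all 1936 probes. With the dye term removed, its values on arrays 1 to 4 were 0.42, 0.14, 0.16 and 0.43, and the lowest of them exceeded the highest such value of the other 6 probes (0.12). In these adjusted values the mean of arrays 1 and 3 equals that of arrays 2 and 4 by construction, so they carry only 2 degrees of freedom of spread. The SE of 0.08 is shared almost entirely with all other probes, and the SE from this probe's own 4 values was 0.10.

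Among the 7 probes, Igfbp4 was the 1 that passed a limma adjusted p of 0.05, as higher. Over all probes 5.73% passed, 0.930% as higher and 4.80% as lower. That split depended on the processing, with 18 higher and 93 lower here, 71 higher and 65 lower after the dye curve per block, 7 higher and 0 lower after the curve over the whole array, and 3 higher and 0 lower without centring. Because the choice of genes used this contrast, nothing is read from that count. The estimate kept its sign in each of the other settings run, but its call did not. By construction the estimate is the same without the dye term, with a robust prior and without moderation. The settings reuse the same arrays and contrast, so their calls are also only described. Igfbp4 passed in 3 of the 12 that keep probes apart: a robust prior, the dye curve per block and the set without replicate 2 (0.36 ± 0.09). Over all 1936 probes 67 passed with the robust prior and 136 after the curve per block, against 111 in the main fit. With equal scaling 62 passed, after the curve over the whole array 7 and without centring 3. Without the dye term and without moderation 0 probes passed. The Cy5 over Cy3 reading tests the dye term in place of the operation. Leaving out replicate 1, 3 or 4 ended the call, with 0.22 ± 0.14, 0.35 ± 0.14 and 0.21 ± 0.09.

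Igf1, the growth factor itself, had the lowest estimate of the described probes. Probe 983 read -0.03, -0.30, -0.15 and -0.23 as deposited, below 0 on 4 of 4 arrays, which held for 5.94% of all probes. After centring its values were 0.84, -1.05, 0.57 and -1.10, above 0 where the ligated sample carried Cy5 and below 0 where it carried Cy3. The estimate was -0.18 ± 0.08 (SE, n = 4 arrays), at the 10.5th percentile of all probes. With the dye term removed the arrays read -0.05, -0.16, -0.32 and -0.21, all below 0. The estimate did not pass the test, and it was -0.13 ± 0.04 after the dye curve per block described below, where it also did not pass.

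Igfbp1, the insulin-sensitive carrier, was measured by 2 probes whose estimates were both close to 0. Probe 84 read -0.85, 0.80, -0.54 and 0.75 as deposited and 0.02, 0.04, 0.19 and -0.12 after centring, with an estimate of 0.04 ± 0.08. Probe 654 read 0.06, -0.16, 0.02 and -0.05 as deposited and 0.93, -0.92, 0.74 and -0.92 after centring, with an estimate of -0.04 ± 0.08. The probes thus gave estimates that differed by 0.08 ± 0.10 while their single arrays looked unlike each other. Both estimates were small enough that their sign changed with the setting, to -0.03 ± 0.04 for probe 84 after the dye curve per block and to 0.03 ± 0.05 for probe 654 after the curve over the whole array. The first followed the dye as the median probe did, and the second hardly differed between dyes as deposited.

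Igfbp3, the main carrier in blood, was measured by 3 probes, of which none passed. Probe 92 read -0.47, 0.43, -0.28 and 0.29 as deposited and 0.41, -0.32, 0.45 and -0.59 after centring, with an estimate of -0.01 ± 0.08. Probe 1090 read -0.73, 0.56, -0.38 and 0.51 as deposited and 0.15, -0.19, 0.35 and -0.36 after centring, with an estimate of -0.01 ± 0.08. Both estimates changed sign without some array, between -0.08 and 0.05 for probe 92 and between -0.06 and 0.04 for probe 1090. On both, the arrays with the dye term removed fell on either side of 0.

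Probe 1532 of Igfbp3 read -0.39, -0.13, -0.21 and 0.06 as deposited and 0.49, -0.89, 0.52 and -0.81 after centring. Its estimate was -0.17 ± 0.08, and its arrays with the dye term removed lay between -0.21 and -0.14. The spread of its own 4 values gave an SE of 0.02, the smallest of the 7 probes. It lay below probe 92 by 0.16 ± 0.09 and below probe 1090 by 0.16 ± 0.09, while probes 92 and 1090 differed by 0.0008 ± 0.0819. Averaged over its 3 probes Igfbp3 had -0.07 ± 0.07, and Igfbp1 averaged over its probes had -0.0031 ± 0.0728.

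**Figure D1:**
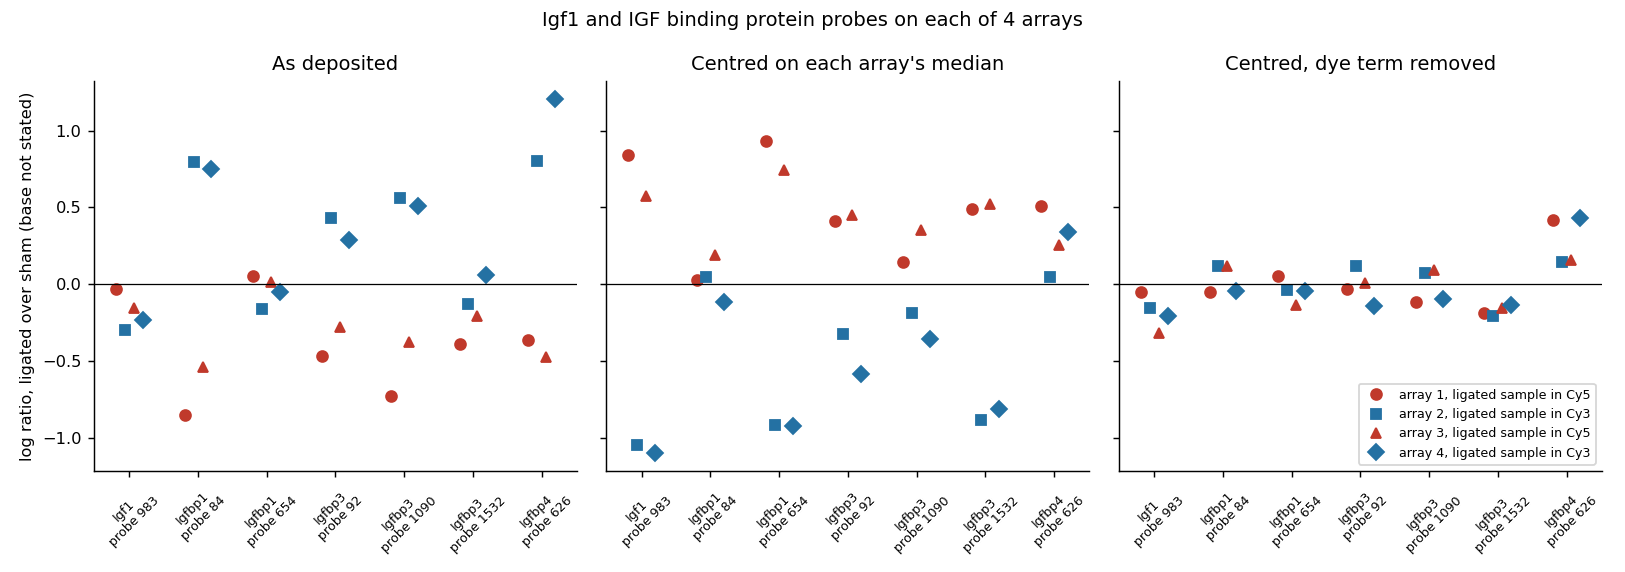
Log ratio of ligated over sham (y axis, base not stated) of the 7 probes on arrays 1 to 4, as deposited (left), centred (middle) and with the dye term removed (right); red marks arrays with the ligated sample in Cy5 and blue those in Cy3. The dye parts the points of most probes in the left or middle panel, and in the right panel Igfbp4 lies between 0.14 and 0.43, above the points of all others.

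From highest to lowest the estimates ran Igfbp4 (probe 626), Igfbp1 (84), Igfbp3 (92), Igfbp3 (1090), Igfbp1 (654), Igfbp3 (1532) and Igf1 (983). The step from Igfbp4 to Igfbp1 probe 84 was 0.25 ± 0.12. The step from Igfbp1 probe 654 to Igfbp3 probe 1532 was 0.13 ± 0.12, and each of the other steps was at most 0.05, with an SE of 0.12. The errors of these steps treat the probes as independent, although they share the arrays. Those of the differences between probes of a gene were fitted within arrays. Of the 7 estimates 2 were above 0 and 5 below, with a median of -0.01, against a median of -0.02 over all probes.

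The dye term is a measure that the choice of genes did not use, and it separated the probes far more than the operation did. It passed a limma adjusted p of 0.05 at 5 of the 7 probes, against 82.6% of all probes. On centred values it was 0.89 ± 0.08 for Igf1 and 0.88 ± 0.08 for Igfbp1 probe 654 (limma adjusted p = 7.51e-16 and 1.23e-15). The 3 Igfbp3 probes had 0.44, 0.26 and 0.68 (adjusted p = 2.37e-06, 0.00356 and 2.26e-11 in limma, in the order of probes 92, 1090 and 1532). Igfbp1 probe 84 and Igfbp4 had 0.07 ± 0.08 and 0.09 ± 0.08 and did not pass (limma adjusted p = 0.419 and 0.296). These values are relative to the median probe: as deposited, the median dye term over all probes was -0.81, and that of Igf1 was 0.09 and that of Igfbp4 -0.71.

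Differences between probes of a gene were also computed for both terms. Between Igfbp1 probes 84 and 654 the dye term differed by -0.81 ± 0.10 (limma adjusted p = 0.000881 over 699 pairs of probes of 340 genes), a larger difference than in 78.5% of these pairs or equal to it. Igfbp3 probes 1090 and 1532 differed by -0.41 ± 0.09 (limma adjusted p = 0.00981), and the other Igfbp3 pairs by 0.18 ± 0.08 and -0.23 ± 0.09 (limma adjusted p = 0.118 and 0.0813). Over all 699 pairs the median size of the difference was 0.31 for the dye and 0.09 for the operation, where the SD of the terms over all probes was 0.55 and 0.13, and 347 pairs passed for the dye.

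The estimate for the operation differed with the dye term over the array, without a steady rise or fall. Probes were ordered by dye term and split into 5 groups of near equal size. From the lowest to the highest dye term the median estimates were -0.0232, 0.0004, 0.0101, -0.027 and -0.0784. In the group with the highest dye term, which holds 388 probes, among them Igf1 and Igfbp1 probe 654, the median estimate was -0.0784 (quartiles -0.1691 and -0.0032). There Igf1 lay at the 23.2th percentile and Igfbp1 probe 654 at the 59.0th. In the middle group, which holds Igfbp4 and Igfbp1 probe 84, the median was 0.01 (quartiles -0.06 and 0.07), with Igfbp4 at the 98.4th percentile and Igfbp1 probe 84 at the 60.7th. The 3 Igfbp3 probes fell in the group between these (median -0.03), where probe 1532 lay at the 12.7th percentile and the others at the 55.0th and 54.8th. The part of the dye in the estimate of Igf1 was not tested beyond the curves that follow.

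**Figure D2:**
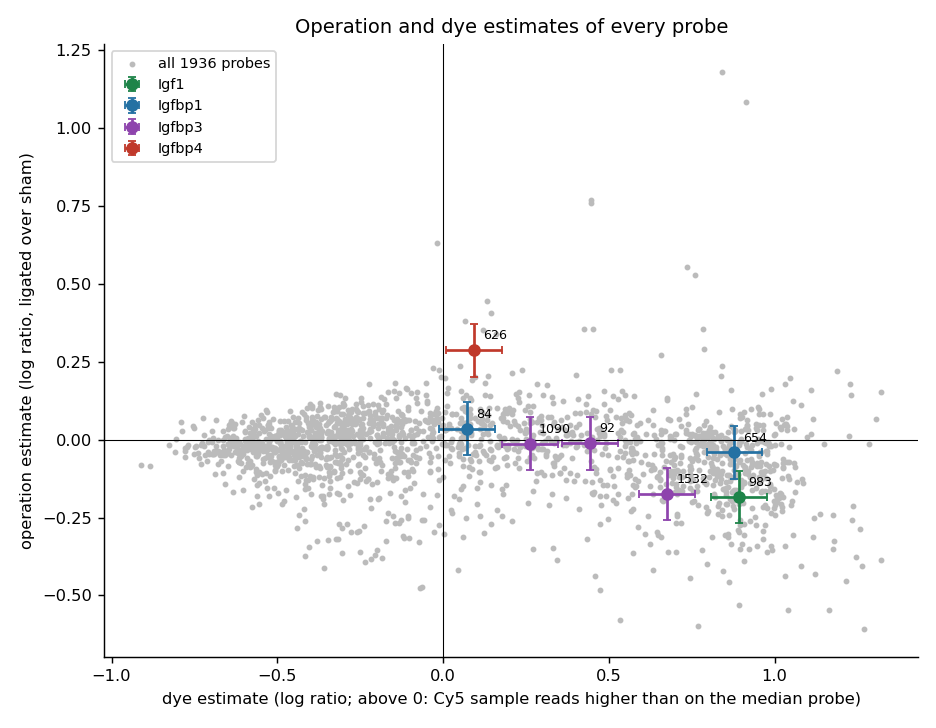
Operation estimate (y axis, log ratio of ligated over sham) against dye estimate (x axis, log ratio on centred values) of 1936 probes in grey, with the described probes in colour, numbered, and with SE bars. Igfbp4 (probe 626) lies above most probes of like dye term at 0.29, while Igf1 (983), at a dye estimate of 0.89, lies at -0.18 among many probes below 0.

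A dye curve, which subtracts from each array a smooth function of the probe's dye term, was fitted over the whole array and within each of 16 runs of consecutive probe numbers called blocks. After the curve per block 7.02% of all probes passed, and again 1 of the 7 probes did, Igfbp4, at 0.25 ± 0.07. Igf1 and Igfbp3 probe 1532 had -0.13 ± 0.04 and -0.12 ± 0.04. Igfbp3 probes 92 and 1090 had -0.06 ± 0.04 and -0.01 ± 0.04, and the Igfbp1 probes 84 and 654 had -0.0321 ± 0.0354 and -0.0046 ± 0.0356. After the curve over the whole array Igfbp4 had 0.28 ± 0.09, Igf1 -0.11 ± 0.05 and Igfbp3 probe 1532 -0.12 ± 0.06, and none of the 7 probes passed.

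**Figure D3:**
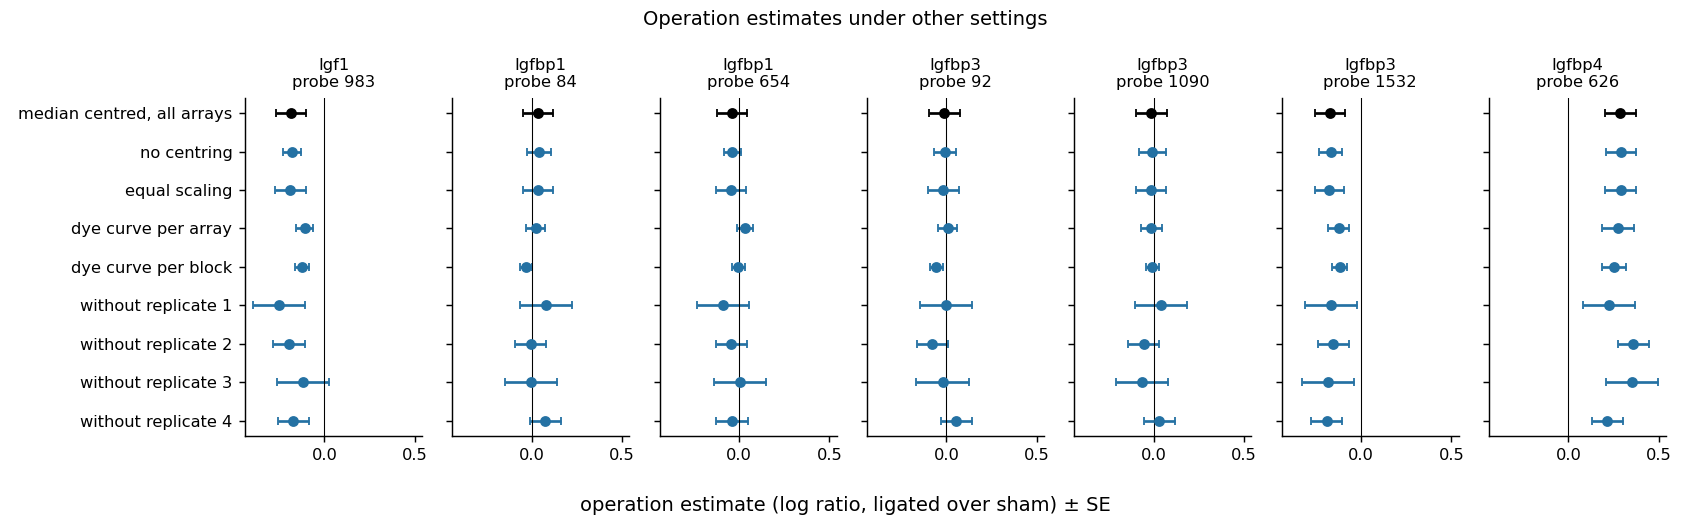
Operation estimates (x axis, log ratio of ligated over sham, with SE bars) of the 7 probes under the setting reported (black) and 8 other settings (blue, 1 per line). Not drawn are the Cy5 over Cy3 reading, averaged probes, the robust prior and the test without moderation. The fit without the dye term is also not drawn, and its SE for Igf1 was 0.40. In the settings drawn Igfbp4 lies between 0.21 and 0.36 and Igf1 between -0.25 and -0.11, and the other Igfbp1 and Igfbp3 probes except 1532 lie within 0.09 of 0.

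The named genes whose 4 centred values lay nearest to each probe, by the root mean square of the differences over 4 arrays, were as follows. Igf1 was nearest to P4hb, a protein disulfide isomerase (0.0353), and Aldh2, the mitochondrial aldehyde dehydrogenase (0.0474). Igfbp4 was nearest to Hes1, a transcription factor of Notch signalling (0.0892), and Nfkbia, the inhibitor of NF-κB (0.183), with estimates of 0.20 and 0.22. Igfbp1 probe 84 was nearest to the kinase Akt1 (0.0407) and to Creld2 (0.0449), and probe 654 to Psmc5, a proteasome subunit (0.0183), and Cyp1a2, a cytochrome P450 (0.0273). Igfbp3 probes 92, 1090 and 1532 were nearest to Dync1h1 and Copg1 (0.0255 and 0.0470), Top1 and Pfkl (0.0492 and 0.0506), and Hnrnpk and Dpp4 (0.0782 and 0.0820). Among the described probes themselves the nearest were Igf1 and Igfbp1 probe 654 (0.147), and both Igfbp1 probes lay 0.822 apart. Over all probes the dye term had an SD of 0.55 and the operation estimate 0.13, so likeness over 4 arrays is mostly likeness of the dye term. The probes nearest to Igfbp4 also had high operation estimates, the measure known when the genes were chosen.

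Of 145 genes listed around the IGF system, 38 were measured, by 61 probes. Of these 1 rose and 3 fell, against 0.930% and 4.80% of all probes, and 57 did not pass. All 3 that fell lie in block 3, which also holds most of the probes that passed as lower over the whole array. The share of 4.80% thus rests largely on that block. After the dye curve per block 2 rose and 1 fell, against 3.67% and 3.36% of all probes. The median estimate of the 61 was -0.02, the same as over all probes.

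In the list of the other IGF carriers and ligands 6 of 21 genes were measured, by 7 probes, and 1 rose. That was Ccn2, a matrix protein that carries an IGFBP-like domain, with -0.48, 1.08, -0.18 and 1.00 as deposited. Its centred values were 0.39, 0.33, 0.55 and 0.13, above 0 on all 4 arrays, and its estimate was 0.35 ± 0.08 (limma adjusted p = 0.00361). Ccn2 was also called with equal scaling, a robust prior and the dye curve per block. It was not called without centring (limma adjusted p = 0.242) or after the dye curve over the whole array (limma adjusted p = 0.135). Of all 1936 probes 3 and 7 passed in these settings. Nor was Ccn2 called without the dye term or without moderation, where 0 probes passed. It was also not called in the Cy5 over Cy3 reading, which tests the dye term in place of the operation. The call ended without replicate 1 (0.39 ± 0.14, limma adjusted p = 0.230) and without replicate 3 (0.31 ± 0.14, limma adjusted p = 0.999).

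Igfals, the acid labile subunit that holds IGF1 in blood, read -0.05, -0.21, -0.27 and -0.16 as deposited, below 0 on 4 of 4 arrays as Igf1 did. Its estimate was -0.18 ± 0.08 (limma adjusted p = 0.308), and it passed after the dye curve per block, as lower (-0.16 ± 0.04, limma adjusted p = 0.0368). Igf2, the fetal growth factor, had 0.01 ± 0.08, and the carriers Igfbp5 and Igfbp6 had 0.06 ± 0.08 each. Igfbp2, a carrier made in liver, had -0.10 ± 0.08 at probe 555 and -0.02 ± 0.08 at probe 1715, and none of these 5 probes passed (limma adjusted p from 0.799 to 0.991). The probes parted on the dye term as those of Igfbp1 did, at 0.63 for probe 555 and -0.55 for probe 1715. Igfbp5 and Igfbp6 had -0.56 and -0.52, and Igfals had 0.82.

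In the list of the growth hormone receptor and JAK-STAT signalling 6 of 29 genes were measured, by 16 probes, and 1 fell. Ghr, the growth hormone receptor, had -0.08 ± 0.09 and Stat5b had 0.07 ± 0.08 (limma adjusted p = 0.886 and 0.932). The 3 probes of Jak2 had estimates between -0.12 and 0.02, and the 8 probes annotated as Socs1, a brake on this signalling, between -0.19 and 0.11, and none of them passed. Stat3 had 0.14 ± 0.08 and 0.06 ± 0.09, and its probe 723, which did not pass on centred values (limma adjusted p = 0.522), passed as higher after the dye curve per block (0.14 ± 0.04, limma adjusted p = 0.0336). The probe that fell was that of Sst, the peptide somatostatin, at -0.32 ± 0.09 (limma adjusted p = 0.0243), in block 3. It read -1.28, 0.05, -1.19 and 1.17 as deposited, its arrays 2 and 4 of the same dye differing widely, and the call ended after the dye curve per block (-0.05 ± 0.03, limma adjusted p = 0.521).

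In the list of insulin receptor and PI3 kinase signalling 10 of 40 genes were measured, by 15 probes, and 0 passed, in limma on centred values and after the dye curve per block. Irs1, the insulin receptor substrate, had 0.06 ± 0.08, and Insr, the insulin receptor, was not among the measured symbols. The 4 probes of the kinase Akt2 lay between -0.07 and 0.15. The list ran from -0.10 to 0.15 with a median of 0.01.

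Of the listed transcription factors of the Igf1 and Igfbp promoters 6 of 28 were measured, by 11 probes, with a median estimate of -0.09. The liver factors Hnf4a, Cebpa and Cebpb were not among them. A single probe of Nr3c1, the glucocorticoid receptor, fell: probe 340, in block 3, at -0.35 ± 0.09 (limma adjusted p = 0.00705). It read -0.98, -0.32, -0.66 and 0.58 as deposited. The block-wise dye curve left -0.09 ± 0.05 (limma adjusted p = 0.338). The other Nr3c1 probes had -0.04 ± 0.08 and -0.13 ± 0.08 and did not pass.

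Of the listed proteases of IGF binding proteins and their inhibitors 10 of 27 were measured, by 12 probes, and 1 fell. That was Ctsb, the lysosomal protease cathepsin B, at -0.38 ± 0.09 (limma adjusted p = 0.00562), also in block 3. It read 0.03, -1.41, 0.11 and -0.21 as deposited, with array 2 far below the others. The block-wise dye curve left -0.02 ± 0.04 (limma adjusted p = 0.812). Without replicate 2 the estimates of Sst, Nr3c1 probe 340 and Ctsb were -0.07 ± 0.09, -0.15 ± 0.09 and -0.10 ± 0.09, and none passed (limma adjusted p = 0.951, 0.582 and 0.871). Timp1, a protease inhibitor, had 0.18 ± 0.08 and did not pass (limma adjusted p = 0.272).

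**Figure D4:**
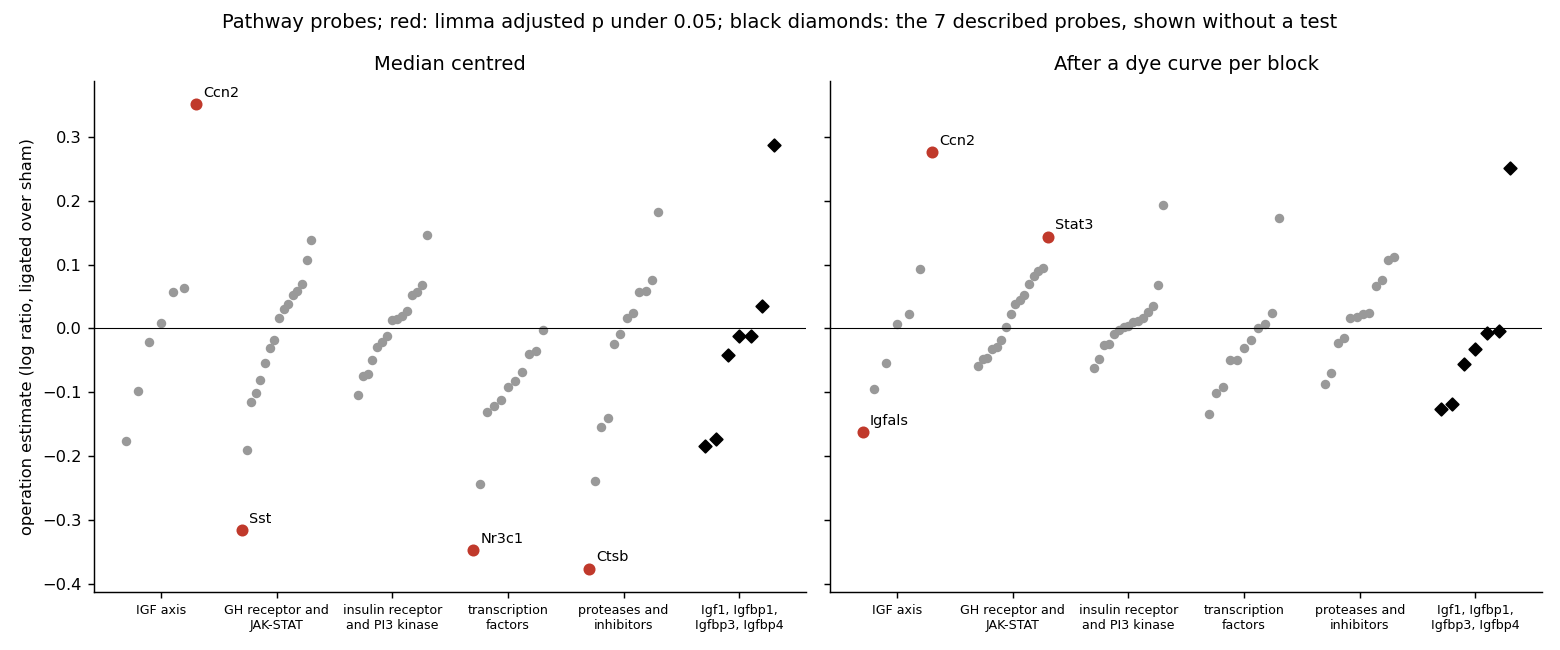
Operation estimates (y axis, log ratio of ligated over sham) of the 61 listed probes by list and of the 7 described probes (black diamonds), on centred values (left) and after the dye curve per block (right); red points passed a limma adjusted p of 0.05. Ccn2 was called in both panels, while Sst, Nr3c1 and Ctsb were called only on the left and Igfals and Stat3 only on the right.

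Of the listed markers of liver cell types, hepatocyte genes were measured at 5 of 10, by 6 probes, all with estimates below 0 (-0.24 to -0.04, median -0.13), of which none passed on centred values. After the dye curve per block 1 of them did, as lower, that of Ttr, the carrier transthyretin (-0.17 ± 0.04, limma adjusted p = 0.0293). Their dye terms were high at 5 of 6 probes (0.80 to 1.00), as were those of Igf1 and Igfbp1 probe 654. These 5 fall in the group of probes with the highest dye term. Most estimates in that group were below 0, with a median of -0.0784 and an upper quartile of -0.0032. Of 8 Kupffer cell and macrophage markers 0 were measured. Endothelial markers had -0.18 to -0.05 at 3 probes, and the cholangiocyte marker Spp1 had 0.10, and none of these passed on centred values. Col1a1, a collagen chain of stellate cells, rose at 1 of 2 probes (0.34 ± 0.08, limma adjusted p = 0.00526). Vim, also listed for stellate cells and fibroblasts, had 0.0032 ± 0.0835 and did not pass (limma adjusted p = 0.991). The Pf4 probe in block 3 was the 1 of 4 blood cell probes that passed, as lower (-0.30 ± 0.09, limma adjusted p = 0.0337). That call was not made after the dye curve per block (-0.04 ± 0.03, limma adjusted p = 0.536). The other blood cell probes had estimates above 0, at 0.14 for Pf4 probe 78 and 0.02 and 0.15 for S100a9, and did not pass (limma adjusted p = 0.492, 0.991 and 0.475). The part of cell composition in the values of Igf1, Igfbp1, Igfbp3 and Igfbp4 was not tested.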

How the data were processed

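Each deposited score is the log ratio of both channels of one array, per the file headers in 1 column per array. How the authors corrected background, normalized and chose the log base is not stated in the labels read. All 1936 probes had values on 4 arrays (0 missing). Symbols came from the platform annotation, and 1429 of 1432 single-symbol probes matched a current RefSeq gene ID (GRCr8). Spot intensities were not analysed here, and precision is set by the small number of arrays.

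Arrays were centred on their medians. Operation and dye terms were fitted over all probes in limma (version 3.58.1, R version 4.3.3) by lmFit and eBayes, with 2 residual and 76.2 prior degrees of freedom. Adjusted p-values are Benjamini-Hochberg over all probes, and 0.05 was the threshold. The fit was tested on simulated data. Alternatives were no centring, equal scaling, reading ratios as Cy5 over Cy3, leaving out the dye term, loess dye curves (degree 1, span 0.4 per array and 0.75 per block), a robust prior, probes averaged, no moderation, and each array left out. The genes, lists, blocks and alternatives were chosen with earlier results of these data known. The rule for names took the 7 probes, list probes that passed, measured genes of the IGF axis, Ghr, Insr, Irs1, Stat5b, Stat3, Hnf4a, Cebpa and Cebpb, and the 2 nearest probes of each of the 7. Akt2, Timp1, Jak2, Socs1 and the named markers were added after their values were seen. A further gene of the rule is not reported here.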

Additional observations from a re-analysis of the deposited data

How the results depend on the processing

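Over the settings run, 69 alternative values of the 7 probes lay within the spread between arrays of the value reported, and the others came from the Cy5 over Cy3 reading. The near-0 estimates of both Igfbp1 probes and of Igfbp3 probes 92 and 1090 changed sign within that spread. Part of the agreement was fixed in advance. Leaving out the dye term returns the same estimate, and leaving out the centring shifts all probes by the same small amount. Averaging gives every probe of a gene the same value. In the Cy5 over Cy3 reading the estimates were 0.89 for Igf1, 0.88 for Igfbp1 probe 654, 0.44, 0.26 and 0.68 for Igfbp3 probes 92, 1090 and 1532 (all of opposite sign) and 0.0941 for Igfbp4, since it turns the dye term into the operation. The number of probes passing in limma, 111 as reported, was 3 without centring, 62 with equal scaling, 1599 in the Cy5 over Cy3 reading, 0 without the dye term (5 at unadjusted p under 0.05), 7 after the dye curve per array, 67 with a robust prior, 0 without moderation (10 at unadjusted p under 0.05), 37 of 1462 with probes averaged, and from 12 to 241 leaving out 1 array. For the listed pathway probes, 4 as reported, it was 0 without centring, 51 in the Cy5 over Cy3 reading, 0 without the dye term (5 at unadjusted p under 0.05 over all probes), 0 after the dye curve per array, 2 with a robust prior, 1 with probes averaged, and from 0 to 10 leaving out 1 array. As deposited, the dye terms of Igfbp3 probes 92, 1090 and 1532 were -0.36, -0.55 and -0.13, of opposite sign to the centred ones. Centring shifts the dye term of every probe by the same amount. Those of Igfbp1 probe 84 and Igfbp4 were also below 0 as deposited (-0.73 and -0.71). Those of Igf1 and Igfbp1 probe 654 were above 0 (0.09 and 0.07) and kept their sign. Fits without an array have 1 residual degree of freedom, and all probes then share an SE. Each value already compares ligated and sham RNA on 1 array. Arrays were not paired with each other, because the labels do not say which of them share RNA. Spot intensities were not used here, so how far signal over background limits these probes was not tested.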
